A study of Mus musculus with 16 samples.

Results

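The genes described here are 37 genes of DNA replication and mitosis, 17 that act in S phase and 20 that act in mitosis, taken by gene symbol from the 12100 genes with FPKM values (fragments counted per gene, scaled to transcript length and to the fragments mapped in the library). All 37 were found. The 16 libraries came from mouse embryo fibroblasts (MEFs) with or without Arkadia, a ubiquitin ligase that acts in TGFβ signalling and is the product of Rnf111. Wild-type MEFs (Ark+/+, here WT) were sampled untreated and after 1, 4 and 16 h of TGFβ at 2.5 ng/ml. Null MEFs (Ark-/-) that had received wild-type Arkadia by retrovirus (rvWT), or Arkadia with its core SUMO-interacting residues changed to alanine (sim), were sampled at 0, 1 and 4 h. In both, a CAG promoter drove Arkadia together with EGFP, and the cells were used at early passages after infection. Uninfected null MEFs (Ark-/-, here null) were sampled at 0, 1, 4 and 16 h beside WT in the libraries named A (set A), and again at 0 and 1 h beside rvWT and sim in the libraries named B (set B). The study names a pair of sequencing batches, and the labels do not say which libraries each held. No library of an empty retrovirus was analysed here, so in rvWT and sim the effects of infection cannot be told apart from those of Arkadia. Each line had 1 library per time and set, so the spread of a line was taken over its times. The labels do not say whether libraries came from separate cultures, so p-values reflect library-to-library spread only, part of which may be technical. In the line comparisons that spread also holds any line difference that changes with time. It is not the spread of repeat libraries.

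Cells enter S phase when cyclin E with its kinase partner releases E2F transcription factors, which switch on the genes for origin licensing, the replicative helicase and nucleotide supply. Genes for mitosis peak later, in G2 and M phase, and many of them carry a CCAAT box and a CHR element (cell cycle genes homology region) close to the start of transcription. The CHR element is a site through which such genes are kept silent in resting cells. TGFβ is known to halt many epithelial cells in G1, whereas fibroblasts can respond to it with either slower or faster growth. Cell number, cell cycle phase and growth rate are not part of the values, and in these bulk libraries fewer cycling cells and less RNA per cycling cell cannot be told apart.

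The promoters are shown first because S-phase and mitotic genes are described apart below and the motifs of the 2 classes differ. RefSeq promoter windows of the mouse build GRCm38.p6, from 250 bases before to 50 bases after each start, were matched for 32 of the 37 genes, 14 of S phase and 18 of mitosis. Ccna2, Ccne2, Mcm4, Aurkb and Gins2 had no entry. A CHR element, searched as TTTGAA or TTCGAA on both strands, lay in the window of 14 of 18 mitotic genes (77.8%) and 2 of 14 S-phase genes (14.3%), against 21.7% of all 27025 genes with a window. CCAAT, searched on both strands, lay in 16 of 18 mitotic genes (88.9%) and 8 of 14 S-phase genes (57.1%), against 41.1% of all genes. An E2F motif, searched on both strands as GGCGCNAA, GGCGGGAA or GCGCGAAA, lay in 6 of 14 S-phase genes (42.9%) and 3 of 18 mitotic genes (16.7%), against 5.0% of all genes. The first and the last E2F form can overlap each other, and CCAAT can overlap the first. These are matches of letters and not measured binding sites. The 180 bases before the start are printed for 6 genes on which results below turn, each 5′ to 3′ on the gene's own strand, with every match of the 3 motifs on either strand in capitals. They lie at chr9:70421555-70421734 (minus strand) for Ccnb2, chr4:118437344-118437523 (minus) for Cdc20, chr19:37376202-37376381 (plus) for Kif11, chr11:99024190-99024369 (minus) for Top2a, chr8:75109329-75109508 (plus) for Mcm5 and chr7:102441515-102441694 (plus) for Rrm1.
Ccnb2: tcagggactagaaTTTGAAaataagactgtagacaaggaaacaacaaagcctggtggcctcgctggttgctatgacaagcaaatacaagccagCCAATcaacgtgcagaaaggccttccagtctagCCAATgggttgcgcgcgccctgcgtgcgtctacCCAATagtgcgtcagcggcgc
Cdc20: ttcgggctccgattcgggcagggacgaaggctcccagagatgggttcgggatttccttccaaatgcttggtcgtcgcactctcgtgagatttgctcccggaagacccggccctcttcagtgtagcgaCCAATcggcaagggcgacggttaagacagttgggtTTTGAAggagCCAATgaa
Kif11: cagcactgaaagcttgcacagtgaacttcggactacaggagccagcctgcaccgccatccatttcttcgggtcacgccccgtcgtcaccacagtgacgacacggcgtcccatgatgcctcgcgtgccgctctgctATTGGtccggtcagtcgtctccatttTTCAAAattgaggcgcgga
Top2a: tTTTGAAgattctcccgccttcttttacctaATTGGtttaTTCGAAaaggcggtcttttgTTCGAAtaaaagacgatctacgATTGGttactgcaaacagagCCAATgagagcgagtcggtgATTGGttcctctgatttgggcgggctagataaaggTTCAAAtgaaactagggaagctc
Mcm5: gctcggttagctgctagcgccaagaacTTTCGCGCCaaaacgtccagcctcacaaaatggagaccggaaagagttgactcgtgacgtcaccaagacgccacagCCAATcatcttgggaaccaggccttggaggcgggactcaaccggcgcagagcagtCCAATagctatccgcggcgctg
Rrm1: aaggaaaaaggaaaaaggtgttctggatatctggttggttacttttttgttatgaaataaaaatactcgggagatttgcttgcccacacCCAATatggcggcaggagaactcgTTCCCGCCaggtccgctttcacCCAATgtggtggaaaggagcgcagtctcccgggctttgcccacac
Cdc20 and Kif11 have a CHR match at positions -18 and -19 from the start and CCAAT further upstream, at -53 and -45. Cdc20 holds another CCAAT at -8, nearer to the start than its CHR match. In Ccnb2 the CHR match printed, at -167, lies upstream of the CCAAT matches. Another CHR match of Ccnb2 lies at position 5, after the start and outside the bases printed. Top2a holds 4 CHR and 4 CCAAT matches in the bases printed. Mcm5 and Rrm1 hold no CHR match and carry E2F matches that begin at -153 and -67.

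The libraries followed their labels. Rnf111 lay between 14.5 and 15.1 FPKM in WT, between 102.5 and 125.8 in rvWT, between 56.0 and 62.1 in sim, and between 0.121 and 0.526 in the 6 null libraries. Smad7, an early TGFβ target, rose at 1 h of TGFβ (log2 difference 2.04, adjusted p below 0.05 by limma), as did Pmepa1 (1.58). The total per library ran from 397019 to 481970 FPKM. WT stood apart in fibroblast markers. The 9 of 10 listed that were measured summed to between 1824 and 2334 FPKM in WT, against between 5803 and 5958 in null of set A, with 9 of 9 lower in WT. Col3a1 was at 7.32 to 11.6 FPKM in WT and 279 to 359 in null of set A, while Vim was at or above 1203 FPKM in every library. The 4 of 6 epithelial markers measured summed to between 272 and 523 FPKM in WT, against between 25.2 and 40.8 in null of set A. That sum in WT is nearly all Krt19 (log2 difference 6.56), while the other 3 were lower in WT by limma: Krt7 (-2.51), Krt8 (-1.87) and Krt18 (-0.55). Of the endothelial markers measured (2 of 5), Tek was listed at 0 in the WT 16 h library and the sum did not pass 10.8 FPKM in any library. The 2 of 5 haematopoietic markers measured summed to between 5.75 and 15.4 FPKM across all libraries. Each line is its own cell population, so the effect of Arkadia cannot be told apart from other differences between lines, and the part of these marker differences in the results below was not tested.

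All 37 genes were expressed in every line, and their levels differed widely. The median over the 16 libraries was highest for Top2a, which untangles sister chromatids (165 FPKM), followed by Pcna, the sliding clamp of the polymerases (158 FPKM), and Birc5, a subunit of the chromosomal passenger complex (126 FPKM). It was lowest for the spindle protein Troap (7.90 FPKM), Ccne2, which encodes cyclin E2 (8.41 FPKM), and Timeless, a guardian of stalled forks (8.73 FPKM). All 37 medians were at or above 5 FPKM, and 32 genes were at or above 5 FPKM in every library. Single values near 0 occurred in 4 genes, each of them entered as a named transcript variant. Ccne2 was at 0.361 FPKM in sim at 1 h and 0.0203 in null of set B at 1 h, and Timeless at 0.0371 in rvWT and 0.178 in sim, both at 4 h. Psrc1, which encodes a microtubule-associated protein, was at 0.230 FPKM and Troap at 0.00360 FPKM in WT at 16 h. In the other libraries of those series these genes were between 6.05 and 16.2 FPKM, so results on them rest on those single values.

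Summed over the 17 S-phase genes, the level in WT stayed between 1173 and 1189 FPKM at all 4 times. In null of set A it was 1090 FPKM at 0 h, 1083 at 1 h, 892 at 4 h and 745 at 16 h. The sum over the 20 mitotic genes in WT was 1234 FPKM at 0 h, 1150 at 1 h, 1036 at 4 h and 1151 at 16 h. In null of set A it was 1287, 1223, 1048 and 753 FPKM at the same times. The S-phase sum of WT was thus the higher at every time, whereas the mitotic sums crossed and lay far apart at 16 h alone. In rvWT the S-phase sum was 811 FPKM at 0 h, 792 at 1 h and 729 at 4 h, and in sim it was 781, 764 and 706 FPKM. Both lay below null of set B, which had 926 FPKM at 0 h and 895 at 1 h. The mitotic sums of rvWT (1105, 1042 and 898 FPKM) and sim (1087, 1034 and 896 FPKM) also lay below null of set B (1184 and 1118 FPKM) at each shared time.

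**Figure D1:**
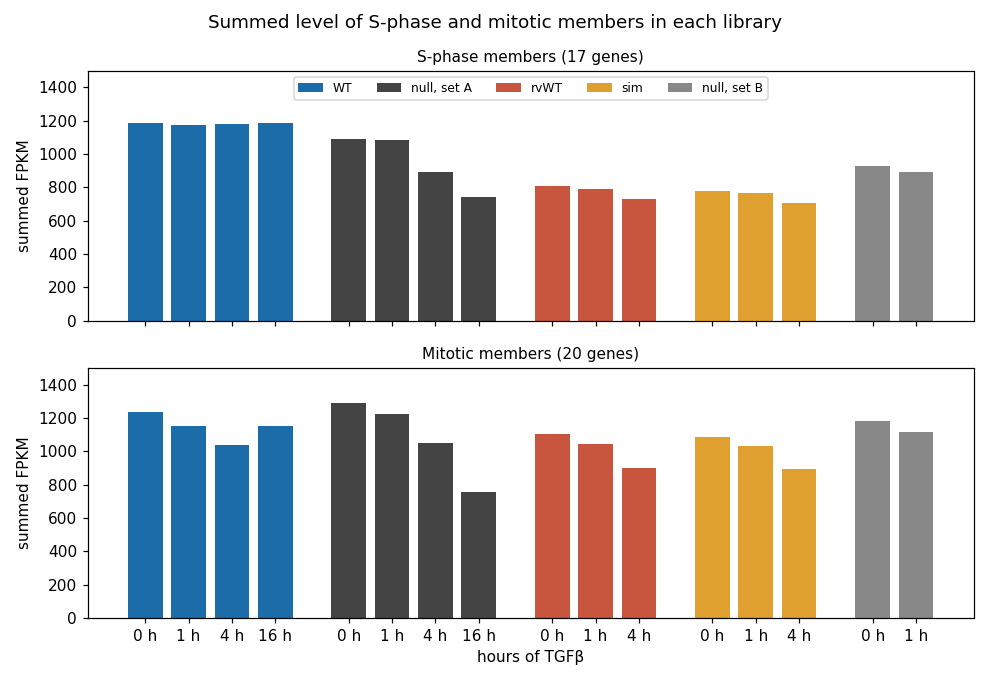
Summed FPKM of the 17 S-phase genes (top) and the 20 mitotic genes (bottom) in each of the 16 libraries, by hours of TGFβ, with 1 bar per library coloured by line. The S-phase sum of WT is level at 1173 to 1189 FPKM, while that of null of set A ends at 745 FPKM at 16 h, and the mitotic sum of null of set A ends at 753 FPKM.

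WT and null MEFs of set A were compared to find which genes differ with Arkadia. S-phase genes leaned toward WT: 11 of 17 were higher in WT and 1 was lower, with a median log2 difference of 0.40, against 0.07 over all genes. Mitotic genes showed no common direction: 5 of 20 were higher in WT (Aurkb, Bub1, Cdk1, Ccnb1 and Mad2l1) and 3 were lower (Cdc20, Mki67 and Ccna2), with a median of 0.08. The difference was widespread in these lines, since 67.5% of the 10976 genes tested passed (37.4% higher in WT, 30.1% lower). The S-phase share higher, 64.7%, lay above that background and the mitotic share higher, 25%, below it. The shares lower in WT were 5.88% of S-phase genes and 15% of mitotic genes.

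Cdc6, which loads the helicase at origins, had 25.2, 23.1, 25.0 and 22.5 FPKM in WT at 0, 1, 4 and 16 h, against 11.8, 12.4, 9.19 and 8.67 FPKM in null. Every WT library lay above every null library. The mean was 23.9 ± 1.34 FPKM in WT and 10.5 ± 1.87 FPKM in null (SD, n = 4 each), a log2 difference of 1.13 ± 0.10 (SE; limma with Benjamini-Hochberg adjustment over all genes, adjusted p = 0.000382). Mcm2, a subunit of the helicase, had 82.9, 87.8, 89.2 and 87.5 FPKM in WT, against 53.8, 52.9, 45.5 and 42.1 FPKM in null (0.83 ± 0.08 SE, limma adjusted p = 0.000579). The groups did not overlap, and the gap was widest at 16 h. E2f1, the transcription factor that drives S-phase genes, had 21.6, 22.2, 20.3 and 20.4 FPKM in WT, against 14.5, 13.9, 11.9 and 10.8 FPKM in null (0.69 ± 0.07 SE, limma adjusted p = 0.000543). Pcna had 262, 252, 251 and 243 FPKM in WT, against 199, 192, 155 and 139.5 FPKM in null (0.57 ± 0.08 SE, limma adjusted p = 0.00228). For both genes the WT libraries again lay above all null libraries.

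Among the remaining S-phase genes, Gins2 (log2 difference 0.73), which encodes a subunit of the active helicase, was higher in WT, as were Timeless (0.67), Mcm7 (0.56), Mcm3 (0.45), Mcm4 (0.40), Ccne1 (0.40), the cyclin E1 gene, and Mcm6 (0.32). The helicase gene Mcm5 (0.17), the licensing factor Cdt1 (0.39), Rrm1 (0.23), Tyms, the thymidylate synthase gene (-0.04), and Ccne2 (-0.11) did not pass. The exception was Rrm2, which encodes the regulatory subunit of ribonucleotide reductase, the enzyme that makes deoxyribonucleotides. It had 82.2, 84.7, 89.3 and 102 FPKM in WT, against 164, 183, 151 and 111 FPKM in null (-0.74 ± 0.17 SE, limma adjusted p = 0.0110). All WT libraries lay below all null libraries, and the 16 h libraries were the closest.

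Aurkb, the kinase of the chromosomal passenger complex, had 68.0, 64.8, 58.6 and 65.0 FPKM in WT, against 52.5, 47.6, 39.7 and 31.1 FPKM in null (0.60 ± 0.12 SE, limma adjusted p = 0.00711). The groups did not overlap. Bub1, a spindle checkpoint kinase, had 20.7, 15.0, 14.9 and 26.9 FPKM in WT, against 10.4, 11.7, 10.5 and 8.18 FPKM in null (0.83 ± 0.22 SE, limma adjusted p = 0.0196). Cdc20, the activator of the anaphase-promoting complex, ran the other way, with 44.3, 43.1, 41.4 and 43.5 FPKM in WT, against 83.5, 76.8, 67.0 and 44.7 FPKM in null (-0.61 ± 0.15 SE, limma adjusted p = 0.0155). WT was flat and below null throughout, but by 16 h the levels nearly met. Cdk1, the kinase that drives entry into mitosis, had 114, 100.5, 91.6 and 102 FPKM in WT, against 91.9, 89.4, 74.9 and 58.8 FPKM in null (0.39 ± 0.11 SE, limma adjusted p = 0.0239), and here the ranges touched, since the WT 4 h library lay below null at 0 h.

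The comparison changed with time in both classes. S-phase genes were higher in WT in 13, 14, 14 and 16 of 17 cases at 0, 1, 4 and 16 h, and their median log2 difference was 0.16, 0.20, 0.62 and 0.62. Mitotic genes were higher in WT in 8, 9 and 8 of 20 cases at 0, 1 and 4 h, with medians of -0.08, -0.05 and -0.06, and in 17 of 20 at 16 h, with a median of 0.54. Over all genes the share higher in WT ran only from 52.6% to 56%, and the median from 0.04 to 0.08. With the 0 and 1 h libraries alone, a choice made after seeing the data, 15 members were higher and 8 lower in WT. The 16 members higher fell to 7 without the 4 h library of either line, and the 4 lower became 8 without the 16 h library of either line and 1 without any other library of the 8.

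**Figure D2:**
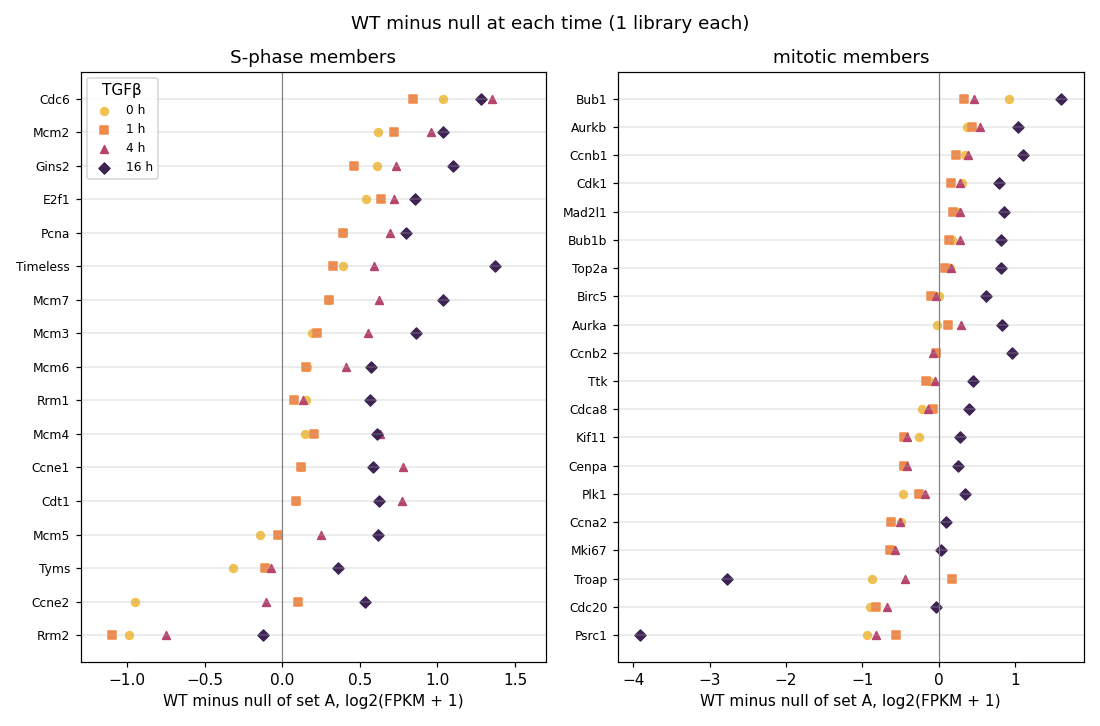
WT minus null of set A on the log2(FPKM + 1) scale for each S-phase (left) and mitotic (right) gene, with 1 point per time, each the difference of 1 library against 1. Mitotic points of 0, 1 and 4 h scatter on both sides of 0 while 17 of 20 points of 16 h lie above it, and the 16 h points of Psrc1 and Troap, at -3.91 and -2.78, rest on WT values near 0.

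In the wider pathway both lists leaned toward WT against null. Of 55 other replication genes 32 were higher and 2 lower in WT, with the nuclease Dna2 (1.44), the repressor E2f7 (0.90) and the polymerase δ subunit Pold2 (0.81) as those of smallest p. Of 84 other mitotic genes 29 were higher and 10 lower, with Pttg1, the securin gene (1.21), Kif18b (0.97) and Fam64a (0.85) as those of smallest p. Over all genes 37.4% were higher and 30.1% lower. The share called higher lay above this background for the replication genes and slightly below it for the mitotic genes. The median of these mitotic genes was 0.24, with 63 of 84 positive, and that of the replication genes 0.33, against 0.07 over all genes, of which 55.3% were positive. The other mitotic genes thus lay above the median of 0.08 of the 20 mitotic members. Of 23 G1 regulators 9 were higher and 7 lower in WT, shares near those of all genes. The 3 of smallest p were all lower: the cyclin D1 gene Ccnd1 (-3.28), at 10.4 to 16.5 FPKM in WT and 95.7 to 162 FPKM in null, the kinase inhibitor gene Cdkn2c (-1.68) and the repressor gene E2f5 (-0.66).

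The next comparison asked how the genes respond to TGFβ, each series being set against its own 0 h. No untreated library of 1, 4 or 16 h was analysed, so the effect of TGFβ cannot be told apart from that of time in culture. The same holds for the differences in response between lines given below. At 1 h none of the 37 genes passed in limma (0 at an unadjusted p below 0.05), while 5.96% of the 11045 genes tested did (3.95% higher, 2.01% lower). Of the other replication genes E2f3 was higher (0.21) and Gins3 lower (-0.23), of the G1 regulators Cdkn1a was higher (0.26) and E2f5 lower (-0.29), and of the other mitotic genes none passed in limma (7 at an unadjusted p below 0.05).

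At 4 h, over the 4 series with that time, 12 of the 37 genes fell and none rose by limma (0 rose at an unadjusted p below 0.05): 4 of 17 S-phase genes and 8 of 20 mitotic genes. Falls were common among all genes at this time (27.1% lower and 11.9% higher of 39% called), so the S-phase share of 23.5% was near the background and the mitotic share of 40% above it. With median-ratio scaling of the libraries 17.3% of all genes were lower and 16.7% higher, and the members lower were 2 of 17 and 7 of 20. Kif11, the motor that pushes spindle poles apart, had 43.2, 36.3 and 30.02 FPKM in WT at 0, 1 and 4 h, 38.0, 35.4 and 22.7 in rvWT, 38.6, 34.5 and 27.2 in sim and 51.6, 50.3 and 40.5 in null of set A. It was lower at 4 h than at 0 h in all 4 series (-0.51 ± 0.10 SE, limma adjusted p = 0.00442). Ccna2, which encodes cyclin A2, was at 76.4% of its 0 h level in WT, 63.1% in rvWT, 69.3% in sim and 77.7% in null of set A (-0.47 ± 0.10 SE, limma adjusted p = 0.00553). Top2a was at 79.3% in WT, 69.6% in rvWT, 72.6% in sim and 78.6% in null of set A (-0.41 ± 0.10 SE, limma adjusted p = 0.0105). Mki67, the gene of the proliferation marker Ki-67, was at 81.7% in WT, 70.8% in rvWT, 66.6% in sim and 80.4% in null of set A (-0.39 ± 0.10 SE, limma adjusted p = 0.0127). Each of these mitotic genes was below 0 h in all 4 series, with and without Arkadia. The spindle checkpoint genes Ttk, Mad2l1 and Bub1b and the kinase gene Aurkb completed the 8.

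The S-phase genes that fell at 4 h were Pcna (-0.24 ± 0.06 SE, limma adjusted p = 0.0147), Mcm6 (-0.19 ± 0.06), Cdc6 (-0.24 ± 0.08) and Timeless (-2.06 ± 0.50). The value of Timeless is that of the rvWT and sim libraries near 0. Pcna was at 96.0% of its 0 h level in WT, 80.1% in rvWT, 86.5% in sim and 78.0% in null of set A. Cdc6 was at 99.0% in WT, 75.9% in rvWT, 81.4% in sim and 77.8% in null of set A. For both genes the WT library moved least. The median S-phase gene was at 0.995 of its 0 h level in WT, 0.952 in rvWT, 0.905 in sim and 0.806 in null of set A. The median mitotic gene was at 0.859 in WT, 0.807 in rvWT, 0.806 in sim and 0.815 in null of set A. The 12 calls became 6 without the rvWT or the sim library at 4 h and 21 without the WT or the null library at 16 h, and none of the members passed with set A alone. In that fit 16 genes of all were called, against 4307, so the loss was not particular to the members.

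At 16 h, measured in WT and null of set A, 15 of the 37 genes were lower than at 0 h and none higher by limma (0 higher at an unadjusted p below 0.05). They were 4 of 17 S-phase and 11 of 20 mitotic genes, where 12.5% of all genes were lower and 6.84% higher of 19.4% called. With median-ratio scaling 8.84% of all genes were lower and 9.09% higher, and 9 members were lower. Kif11 was at 81.2% of its 0 h level in WT and 55.7% in null (-0.58 ± 0.13 SE, limma adjusted p = 0.0146). Pcna was at 92.8% in WT and 70.2% in null (-0.33 ± 0.08 SE, limma adjusted p = 0.0195). Gins2 was at 90.2% in WT and 63.4% in null (-0.39 ± 0.10 SE, limma adjusted p = 0.0263), and Ccna2 at 90.0% in WT and 59.4% in null (-0.49 ± 0.13 SE, limma adjusted p = 0.0268). Each was lower in both lines and the null value was the lower in each. Mcm7 (-0.43), Mcm6 (-0.26), Bub1b, Aurkb, Mki67, Ccnb1, Birc5, Top2a and Cdca8 (-0.33 to -0.50) also passed, and the calls of Troap (-2.12) and Psrc1 (-2.38) rest on the WT library in which both were near 0.

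The 16 h result depended on single libraries. Without the null library at 16 h 2 members were lower, and without the WT library at 16 h 28 were. It was 3 without null of set A at 0 h, 6 without null of set A at 1 h, rvWT at 0 h or sim at 0 h, 8 without sim at 1 h, and 9 without rvWT at 1 h, sim at 4 h or either null library of set B. None of the 37 passed with set A alone, and 8 did without series as a block. With set A alone 245 genes of all were called, against 2139, so the loss was not particular to the members.

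Within the null series the decline was shared by nearly every gene. All 17 S-phase genes were below 0 h at 4 h and at 16 h, with median ratios of 0.806 and 0.690. Of the 20 mitotic genes 18 were below at 4 h and 20 at 16 h, with median ratios of 0.815 and 0.592. In WT at 16 h 11 of 17 S-phase genes were below 0 h (median ratio 0.979), as were 17 of 20 mitotic genes (0.952). Over all genes 56.3% in WT and 60.7% in null were below 0 h at 16 h, with median ratios of 0.978 and 0.938. In WT the mitotic median was lowest at 4 h (0.859) and nearer to 1 at 16 h, whereas in null it was lower at 16 h than at 4 h.

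**Figure D3:**
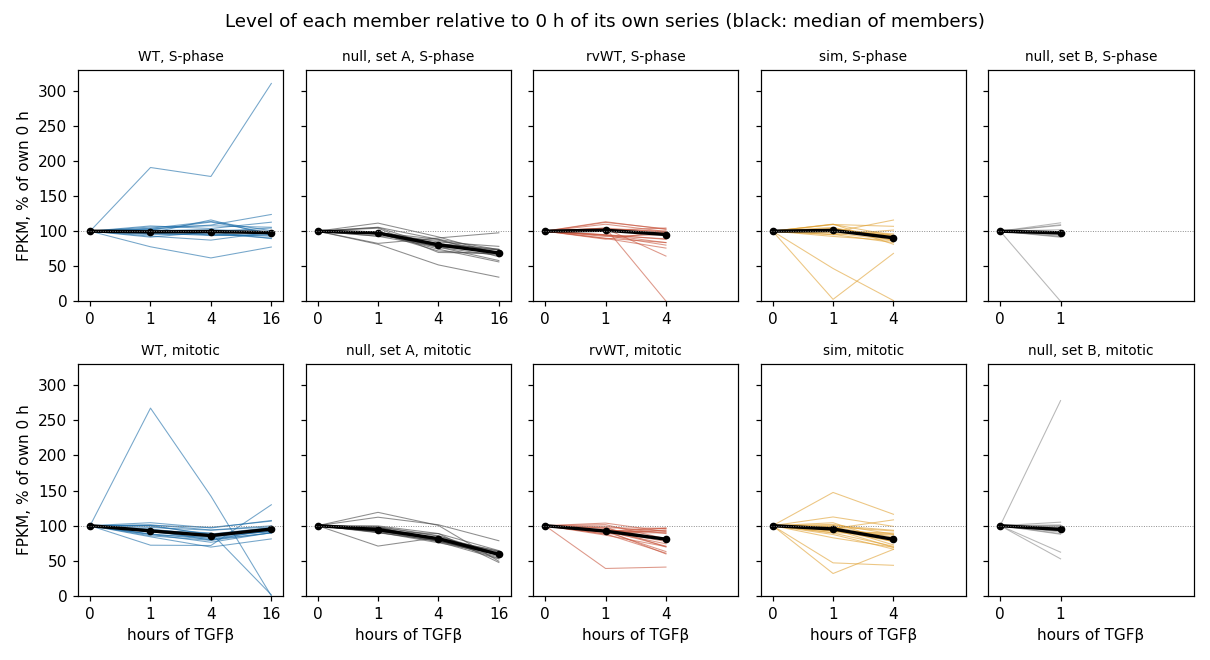
Level of each gene as a percentage of its 0 h value in the same series, by hours of TGFβ, for S-phase and mitotic genes of WT, rvWT, sim and both null series (thin lines: genes; black: median of the genes). In null of set A the median line ends at 69.0% for S-phase and 59.2% for mitotic genes, whereas the WT lines end at 97.9% and 95.2%.

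Over all genes 27.1% were lower and 11.9% higher at 4 h, and 12.5% and 6.84% at 16 h. Of the wider pathway, 33 of 55 other replication genes and 53 of 84 other mitotic genes were lower at 4 h. Both shares lay above that background, unlike the share of the S-phase members at 4 h. None of these other genes was higher by limma (2 and 0 at an unadjusted p below 0.05). Those of smallest p were Wdhd1 (-0.46), Cdc7 (-0.44) and Rfc1 (-0.43) for replication and Aspm (-0.52), Fbxo5 (-0.47) and Ncapg2 (-0.44) for mitosis. At 16 h 21 of 55 and 33 of 84 were lower and none higher by limma (1 and 0 at an unadjusted p below 0.05), those of smallest p being Orc6 (-0.51), Msh6 (-0.45) and Rfc1 (-0.35) for replication and Cdc25b (-0.79), Cenpn (-0.54) and Prc1 (-0.49) for mitosis. Of 23 G1 regulators 3 were higher and 10 lower at 4 h (Cdkn2c -0.86, Cdkn2d -0.66 and Ccnd3 -0.27 of smallest p), and 6 were lower at 16 h (Cdkn2d -0.82, Cdkn2c -0.78 and Ccnd3 -0.51). The G1 genes named are 2 inhibitors of D-type cyclin kinases and a D-type cyclin, and all 3 were lower at both times.

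The difference in response itself was then tested between cells with and without Arkadia. At 1 h and at 4 h, with WT, rvWT and sim set against null, none of the 37 genes passed in limma (1 and 11 at an unadjusted p below 0.05), where 0.00905% of all genes did at 1 h and 0.0362% at 4 h (0.0181% higher, 0.0181% lower). The median difference in the 4 h response was 0.21 for S-phase genes, 16 of 17 of them positive, and 0.01 for mitotic genes, 10 of 20 positive, against -0.02 over all genes. Null had 1 library at 4 h, that of set A, so all these signs share it, while rvWT and sim are of set B. Cdt1 (0.58 ± 0.13 SE) and Ccne1 (0.54 ± 0.12 SE) had the smallest p among the members (limma adjusted p = 0.305 for both).

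At 16 h the response of WT differed from that of null for 13 of the 37 genes, all 13 with a higher WT response, where 1.17% of all genes passed in that direction and 0.453% in the other (1.62% in all). They were 4 of 17 S-phase genes (Mcm7, Rrm2, Mcm5 and Mcm3) and 9 of 20 mitotic genes (Ccnb2, Cdc20, Birc5, Aurka, Plk1, Ccnb1, Cdca8, Aurkb and Top2a). A higher WT response means a more positive log2 change from 0 h in WT, and not a stronger reaction to TGFβ. The median S-phase and mitotic genes were at 0.979 and 0.952 of 0 h in WT, against 0.690 and 0.592 in null. The median difference in response was 0.46 for S-phase genes, positive in 17 of 17, and 0.61 for mitotic genes, positive in 18 of 20, against 0.04 over all genes. Psrc1 (-3.17) and Troap (-1.97), the negative ones, are the genes listed near 0 in the WT 16 h library. At an unadjusted p below 0.05 there were 29 with a higher and 2 with a lower WT response.

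Ccnb2, which encodes cyclin B2, had 65.5, 65.7, 56.9 and 63.3 FPKM in WT at 0, 1, 4 and 16 h, against 67.4, 67.2, 59.9 and 32.1 FPKM in null. The lines ran together to 4 h and parted at 16 h, where null was at 47.6% of its 0 h level and WT at 96.7% (difference in response 1.01 ± 0.08 SE, limma adjusted p = 0.00404). Aurka, a kinase of the spindle poles, had 56.3, 56.5, 54.9 and 59.9 FPKM in WT, against 57.1, 51.7, 44.6 and 33.4 FPKM in null (0.82 ± 0.11 SE, limma adjusted p = 0.0184). Birc5 had 134, 123, 113 and 124 FPKM in WT, against 134, 132, 115 and 79.8 FPKM in null (0.69 ± 0.09 SE, limma adjusted p = 0.0184). For these genes the untreated lines were close to each other, and the 16 h null library was the lowest of the 8. Cdc20 was flat in WT, and its null level, above WT at 0 h, came down to 44.7 FPKM, against 43.5 in WT (0.84 ± 0.09 SE, limma adjusted p = 0.0117).

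Mcm7 had 92.2, 89.9, 86.5 and 87.7 FPKM in WT, against 75.0, 72.7, 55.8 and 42.2 FPKM in null (0.73 ± 0.08 SE, limma adjusted p = 0.0136). Mcm5 had 68.9, 69.5, 70.4 and 68.6 FPKM in WT, against 76.3, 70.8, 59.1 and 44.4 FPKM in null (0.72 ± 0.09 SE, limma adjusted p = 0.0166). Mcm3 had 88.2, 87.4, 87.7 and 92.2 FPKM in WT, against 77.3, 74.8, 59.6 and 50.4 FPKM in null (0.64 ± 0.11 SE, limma adjusted p = 0.0473). These subunits of the helicase were level in WT and declined from 1 h on in null. Rrm2, given above, was at 124% of its 0 h level in WT and 67.7% in null at 16 h (0.88 ± 0.10 SE, limma adjusted p = 0.0137). Plk1 (0.77), a kinase of mitotic entry and exit, Ccnb1 (0.81), the cyclin B1 gene, Cdca8 (0.57), the borealin gene of the passenger complex, Aurkb (0.61) and Top2a (0.64) were the other mitotic genes that passed.

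This 16 h difference is that of 1 WT and 1 null library, with the spread taken from the other times and lines. Leaving out a single library moved the 13 to 0 (null of set A at 0 h), 1 (null of set A or of set B at 1 h), 2 (null of set B at 0 h), 3 (WT at 0 h), 6 (rvWT at 0 h), 7 (sim at 0 h or at 1 h), 8 (WT at 1 h) or 25 (WT at 4 h). With median-ratio or quantile scaling 11 members passed. No value could be had without either 16 h library. Of the wider pathway 3 of 55 replication genes (Tk1 1.02, Fen1 0.71 and Rpa1 0.64) and 21 of 84 mitotic genes, with Ube2c (0.85), Cdca5 (0.79) and Kif23 (0.77) of smallest p, had a higher response in WT and none a lower by limma (0 and 1 at an unadjusted p below 0.05). None of 23 G1 regulators and none of 6 early TGFβ targets passed in limma in this test (8 and 0 at an unadjusted p below 0.05).

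**Figure D4:**
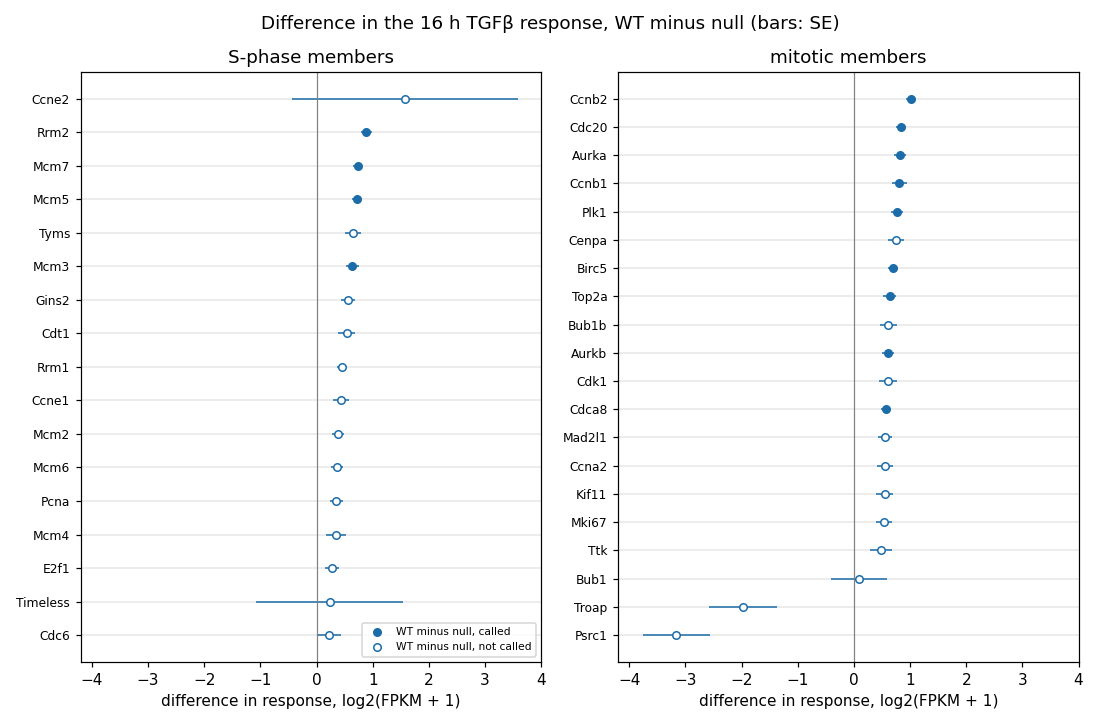
Difference in the 16 h TGFβ response, WT minus null, on the log2(FPKM + 1) scale for each S-phase (left) and mitotic (right) gene, with the limma estimate and its SE; filled points passed (adjusted p below 0.05 over all genes). All 17 S-phase and 18 of 20 mitotic estimates lie above 0, and Psrc1 and Troap lie below it at -3.17 and -1.97.

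Null cells given Arkadia were set against uninfected null cells of set B to ask what reintroduced Arkadia does. Of the genes higher in WT, Mcm6 alone was also higher in rvWT and none was higher in sim. In rvWT 11 of the 37 genes were lower than in null (4 of 17 S-phase and 7 of 20 mitotic) and 2 higher, where 22.6% of all genes were lower and 16% higher of 38.6% called. In sim 12 were lower (6 of 17 and 6 of 20) and 1 higher, where 20.8% of all genes were lower and 13.9% higher of 34.7% called. The shares of members lower were 29.7% in rvWT and 32.4% in sim. With quantile scaling the members in rvWT were 7 lower and 5 higher, and 22% of all genes were higher and 18.6% lower. In sim they were 9 lower and 1 higher, with 19.6% of all genes higher and 17.8% lower. Both comparisons use the same 2 null libraries, so their values are given side by side and not counted as repeats of each other.

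Markers moved as well in set B. The 9 fibroblast markers summed to between 7762 and 8329 FPKM in rvWT and between 7031 and 7460 in sim, against between 6280 and 6471 in null, and 8 of 9 were higher in each line by limma (Col1a2 1.84 in rvWT and 1.61 in sim, Prrx1 1.34 and 1.48). The remaining marker, S100a4, was lower in sim by limma (-0.45) and did not pass in rvWT (-0.17). The epithelial markers summed to between 10.7 and 18.2 FPKM in rvWT and between 12.2 and 22.0 in sim, against between 38.5 and 42.4 in null, with the 3 tested lower in both (Krt7 -1.89 and -1.56). Their part in the result was not tested.

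The largest called S-phase differences in both lines were those of Rrm2, Ccne1 and Rrm1. Rrm2 had 67.7, 76.8 and 69.5 FPKM in rvWT and 71.9, 78.8 and 76.9 FPKM in sim at 0, 1 and 4 h, against 122 and 133 FPKM in null at 0 and 1 h. The log2 difference was -0.83 ± 0.05 in rvWT and -0.74 ± 0.05 in sim (SE; limma adjusted p = 0.000272 and 0.000478). Rrm1, the catalytic subunit of the same reductase, had 78.5, 74.6 and 69.3 FPKM in rvWT and 77.6, 79.4 and 74.5 FPKM in sim, against 116 and 111 FPKM in null (-0.57 and -0.51, limma adjusted p = 0.00100 and 0.00170). Ccne1 had 9.51, 9.93 and 9.39 FPKM in rvWT and 9.43, 8.94 and 9.58 FPKM in sim, against 17.5 and 16.2 FPKM in null (-0.75 and -0.79, limma adjusted p = 0.000885 and 0.000921). For these 3 genes every library with reintroduced Arkadia lay below both null libraries. Tyms did not pass in either line (-0.15 and -0.13). E2f1 was at 12.3 to 13.6 FPKM in rvWT and 10.9 to 13.2 FPKM in sim, against 15.0 and 16.8 FPKM in null (-0.24 and -0.31, limma adjusted p = 0.0303 and 0.0157).

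The direction for Rrm2 was the same as in WT against null, and that for Ccne1 and E2f1 the opposite. Mcm6 was higher in rvWT (0.18), and Gins2 (-0.25) and Mcm4 (-0.16) were lower in sim. The other helicase and licensing genes did not pass in either line, among them Cdc6 (0.21 in rvWT and 0.09 in sim) and Mcm2 (-0.04 and -0.15), which differed most clearly between WT and null. Cdc6 had 12.0, 10.7 and 9.10 FPKM in rvWT and 9.93, 10.9 and 8.07 FPKM in sim at 0, 1 and 4 h. Null of set B had 9.60 and 9.79 FPKM at 0 and 1 h. At these shared times both lines lay above null. Only their 4 h libraries, for which set B has no null library, lay below it.

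Among mitotic genes Aurka had 34.9, 30.7 and 32.8 FPKM in rvWT and 34.5, 34.6 and 32.2 FPKM in sim, against 48.2 and 42.7 FPKM in null (-0.44 and -0.40, limma adjusted p = 0.00517 and 0.00807). Cdc20 had 77.3, 71.3 and 74.4 FPKM in rvWT and 69.9, 68.8 and 64.6 FPKM in sim, against 94.1 and 89.8 FPKM in null (-0.29 and -0.42, limma adjusted p = 0.0103 and 0.00336). Neither line overlapped null for these genes. Ccnb2 was at 51.9 to 58.8 FPKM in rvWT and 50.9 to 61.0 FPKM in sim, against 73.9 and 71.8 FPKM in null (-0.32 and -0.28, limma adjusted p = 0.00732 and 0.0119). Plk1 had 46.0, 42.3 and 44.3 FPKM in rvWT and 47.1, 43.3 and 42.1 FPKM in sim, against 59.3 and 52.0 FPKM in null (-0.31 in both, limma adjusted p = 0.00803 and 0.00881). Cenpa, the centromeric histone gene, was lower in both (-0.23 and -0.28), Mad2l1 (-0.22) and Ccnb1 (-0.25) passed in rvWT, and Psrc1 (-1.43) passed in sim. Top2a was the member higher in both (0.19 and 0.20), at 169 and 165 FPKM in rvWT and 167 and 164 in sim at 0 and 1 h, against 145 and 146 in null. At 4 h, for which set B has no null library, it was at 118 FPKM in rvWT and 121 in sim.

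The counts rested on few libraries. Mcm6, higher in rvWT, no longer passed without any single one of the 8 libraries, and Top2a no longer passed in rvWT without rvWT at 0 or 1 h or either null library, nor in sim without rvWT at 0 or 1 h, sim at 0 h or either null library. Neither passed with all 16 libraries in 1 fit or with time left out of the model, an alternative chosen after seeing the data. With time left out, 7 members were lower in each line. Without null of set B at 0 h the members lower were 4 in rvWT and 5 in sim, and without that at 1 h they were 4 in each. Without rvWT at 0 h the members lower in rvWT were 6. The counts of the wider pathway stand against 16% of all genes higher and 22.6% lower in rvWT, and 13.9% and 20.8% in sim. The shares of other mitotic genes lower were near these. The wider pathway gave, of 55 replication genes, 9 higher and 6 lower in rvWT and 4 higher and 11 lower in sim. Fen1 (-0.56 and -0.60) and E2f8 (-0.55 and -0.53) were among the smallest p in both, with Pold2 (0.42) in rvWT and Msh6 (-0.37) in sim. Of 84 other mitotic genes 5 were higher and 21 lower in rvWT (Gtse1 -0.83, Hjurp -0.65 and Cdca5 -0.51) and 3 higher and 20 lower in sim (Gtse1 -0.82, Incenp -0.54 and Cdca5 -0.51). Of 23 G1 regulators 10 were lower and 1 higher in rvWT (Cdkn1a -1.27, Cdkn2c -1.18 and Ccnd3 -0.93) and 11 lower and 1 higher in sim (Cdkn2c -0.9998, Ccnd1 -0.84 and Ccnd3 -0.75).

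**Figure D5:**
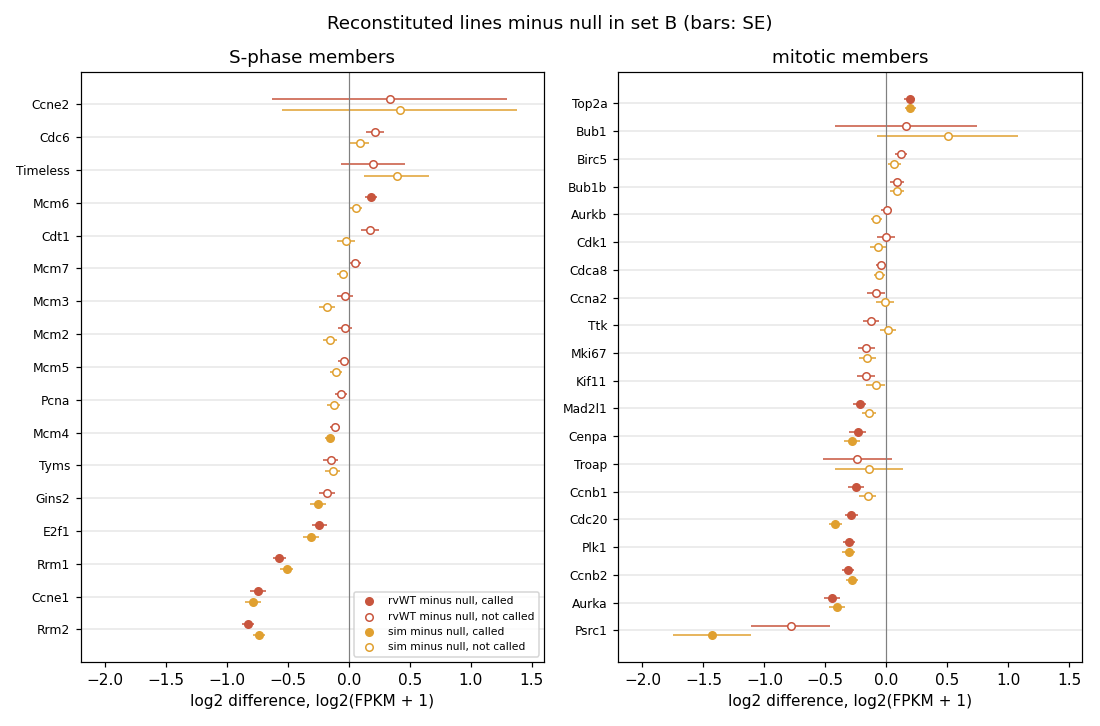
Log2(FPKM + 1) differences of rvWT minus null and sim minus null (null of set B) for each S-phase (left) and mitotic (right) gene, with the limma estimate and its SE; filled points passed (adjusted p below 0.05 over all genes). Rrm2, Ccne1 and Rrm1 lie farthest below 0 with small SE among S-phase genes, at -0.83, -0.75 and -0.57 in rvWT, and the points of Ccne2, Bub1 and Psrc1 have wide SE.

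Wild-type and sim Arkadia, both delivered by retrovirus, were compared to ask whether the SUMO-interacting residues matter for these genes. None of the 37 genes passed in limma (6 at an unadjusted p below 0.05), where 0.493% of all genes did (0.137% higher in rvWT, 0.356% lower). The differences of rvWT minus sim ran from -0.34 (Bub1) to 0.64 (Psrc1), with a median of 0.06 for S-phase and -0.01 for mitotic genes. Cdt1 had 33.0, 37.1 and 34.1 FPKM in rvWT, against 29.8, 32.7 and 28.0 FPKM in sim (0.20 ± 0.06 SE, limma adjusted p = 0.230), and Cdc20 differed by 0.13 ± 0.04 (SE, adjusted p = 0.247). Cdt1 was higher in rvWT at each of the 3 times. None of the 55 other replication genes, 84 other mitotic genes and 23 G1 regulators passed in limma (7, 5 and 7 at an unadjusted p below 0.05). Rnf111 itself was higher in rvWT than in sim at every time, at 110, 102.5 and 125.8 FPKM in rvWT, against 62.1, 56.0 and 61.1 FPKM in sim, so dose and mutation cannot be told apart.

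The null libraries of both sets carry the same genotype and times, and show how far 2 sets of the same cells lie apart. At 0 h null of set A was above null of set B in 13 of 17 S-phase genes (median log2 difference 0.27) and in 13 of 20 mitotic genes (0.16). At 1 h it was above in 14 of 17 (0.22) and 12 of 20 (0.16). Over all genes the median was -0.03 at both times. The S-phase medians of WT minus null of set A at 0 and 1 h, 0.16 and 0.20, were thus no larger than the gap between the null sets. Each line was therefore compared with null of its own set, and levels of WT are not set against those of rvWT or sim.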

How the data were processed

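RNA of 16 MEF libraries was measured by poly(A)-selected, strand-specific sequencing, per the labels' protocols. The authors deposited 1 table of FPKM values for 12100 genes, each under 1 symbol and 1 RefSeq transcript. STAR 2.3.0e, Cufflinks 2.2.1, CASAVA 1.8.2, SAMtools and the build mm9 are named in the submitters' processing notes; annotation and options: not given in the sources used here. Read depth is unknown, so no counting interval is given and the spread between libraries is the measure of precision. FPKM were analysed as log2(FPKM + 1), a scale that understates changes of low genes, for genes with a mean of at least 1 FPKM in the libraries of a fit. All 37 members passed this filter. The test was limma 3.58.1 with a mean-variance trend (R 4.3.3), adjusted over all genes tested by Benjamini-Hochberg, with adjusted p below 0.05. WT minus null used the 8 libraries of set A with time as a block, and rvWT, sim and null used the 8 of set B with time as a term. TGFβ responses used all 16 libraries with the 5 series as a block, and their differences added status by time. The model was also run on simulated data, with noise drawn independently for each library from each gene's own spread. Such a run cannot show whether the times of a line may stand in for repeat libraries. Promoters came from RefSeq tables of GRCm38.p6, a later build than that of the FPKM values.

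The members and the lists of other genes were chosen with earlier results of these data known, so neither is independent support. Per-library values were given for the members with the smallest p in each comparison (up to 4 of each class) and, outside that rule, for a few singled out after their values were seen; of other lists at most 3 genes with the smallest p among those that passed were named. As alternatives, the pseudocount was 0.1 or 5, the filter was dropped or set at a mean of 5 FPKM, libraries were scaled by median ratios or by quantiles, limma was run with robust variances or with no trend, model terms were changed, and libraries were dropped singly. Those with WT minus null at 0 and 1 h alone, with time left out of the line comparisons and with WT set against all other series in the response were added after seeing the data.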

Additional observations from a re-analysis of the deposited data

Results flagged for a closer look

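The response to 16 h of TGFβ differed between WT and null MEFs by the test of the difference itself (limma, adjusted p below 0.05) for 13 of the 37 genes. The log2 differences in response, WT minus null, were 1.01 for Ccnb2, 0.88 for Rrm2, 0.84 for Cdc20, 0.82 for Aurka, 0.81 for Ccnb1, 0.77 for Plk1, 0.73 for Mcm7, 0.72 for Mcm5, 0.69 for Birc5, 0.64 for Mcm3, 0.64 for Top2a, 0.61 for Aurkb and 0.57 for Cdca8. Each line had 1 library at 16 h, and the count ran from 0 to 25 as single libraries of the other times were left out. With no untreated library of 16 h, TGFβ cannot be told apart from time in culture. No line and time had enough libraries for a search for outlying samples.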

How the results depend on the processing

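Beyond counts, 7660 of 8251 gene-level values under the alternatives stayed on their side of the threshold, 461 no longer passed, 127 newly passed and 3 reversed. A change of sign was counted as reversed only for a value that passed in the main fit or in the alternative. A value that passed in neither was counted among the 7660 whatever its sign. Reversed were Ccne2 in rvWT minus null (-1.15 without rvWT at 1 h; -1.15 to 1.44 over all libraries left out singly) and Bub1, without null of set B at 0 h, in rvWT minus null (-1.04; -1.04 to 1.36) and sim minus null (-0.70; -0.70 to 1.702), genes whose values are uneven between libraries of set B; the cause of other changes was not tested. In WT minus null, members lower were 4, and 8 with 0 and 1 h alone. In rvWT minus null, members higher were 2, against 5 with quantile scaling, 1 with limma without trend and 0 with all 16 libraries, and members lower were 11, against 7 with quantile scaling. In sim minus null the member higher became 0 with all 16 libraries. In rvWT minus sim the 54 genes called became 93 with robust variances and 2 with all 16 libraries.

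For TGFβ, genes called were 658 at 1 h (433 with no replicate block for the series, 12 with set A alone), 4307 at 4 h (2835 and 16) and 2139 at 16 h (245 with set A alone). Members lower at 4 h became 0 with set A alone, and the 15 at 16 h became 9 with median-ratio scaling, 8 with no replicate block and 0 with set A alone. With WT set against all other series, genes called in the difference of response were 5, 44 and 426 at 1, 4 and 16 h (otherwise 1, 4 and 179), and members lower at 16 h were 1. Members lower at 16 h were 2 with a pseudocount of 0.1 and 1 with a mean of at least 5 FPKM.

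Leaving out each library in turn gave 6266 to 7343 genes called, 7 to 17 members higher and 1 to 8 lower for WT minus null. It gave 1946 to 4249 genes, 0 to 1 members higher and 4 to 11 lower for rvWT minus null, and 1581 to 3854 genes, 0 to 2 higher and 4 to 11 lower for sim minus null. For rvWT minus sim it gave 1 to 10 genes. For TGFβ it gave 400 to 815 genes at 1 h, 2658 to 4779 genes and 6 to 21 members lower at 4 h, and 640 to 3026 genes and 2 to 28 members lower at 16 h. For the difference in response it gave 1 to 4 genes at 1 h, 2 to 7 at 4 h, and 5 to 708 genes, 0 to 25 members higher and 0 to 1 lower at 16 h. No value could be had for the 4 h difference without null at 4 h, nor for the 16 h difference without either 16 h library.

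The lines compared were paired by time, and the times compared by series. With no replicate block for time, an alternative chosen after seeing the data, WT minus null gave 6756 genes called and 16 members higher and 3 lower. It gave 2200 genes, 0 members higher and 7 lower for rvWT minus null, 1777 genes, 0 higher and 7 lower for sim minus null, and 7 genes for rvWT minus sim.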
